A study of Macaca radiata with 6 samples.

Results

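The enzymes that carry glucose through glycolysis to pyruvate and lactate, and pyruvate on into the citric acid cycle, were followed in corpora lutea (CL) of bonnet monkeys after withdrawal of LH support. The genes were taken from a list of 44 enzymes, and a gene entered when the platform annotation gave at least 1 probe set with that symbol alone. This was so for 33 of the 44, among 14132 genes with such a probe set in all. PGK1 had 1 probe set, which the annotation lists with other symbols too, and PFKM, PGAM1, ENO3, LDHB, PDHA1, PDHB, IDH2, IDH3A, OGDH and DLST had no probe set of that name in the table used here. These 11 enzymes were not analysed here. The probe sets read for PFKL, ALDOA, TPI1, GAPDH, ENO1, IDH3B and IDH3G are of the kind that Affymetrix marks as sharing probes between transcripts, so related sequences could add to their signals.

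Glycolysis splits glucose into pyruvate in the cytosol and yields ATP and NADH, and lactate dehydrogenase returns the NADH to NAD+. The pyruvate dehydrogenase complex, which its own kinases switch off by phosphorylation, turns pyruvate into acetyl-CoA inside mitochondria, where the citric acid cycle oxidizes it. Steroidogenic luteal cells draw on these pathways for ATP and, through isocitrate dehydrogenases and malic enzymes, for the NADPH that the P450 enzymes of steroid synthesis use.

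Adult female bonnet monkeys (Macaca radiata) received, on day 7 of the luteal phase, a single s.c. dose of the GnRH receptor antagonist Cetrorelix (CET) at 150 μg/kg BW, or its vehicle, 5.25% glucose (VEH), and the CL was removed 24 h later. There were 3 CET samples (replicates 1, 2 and 3) and 3 VEH samples (replicates 4, 5 and 6), each on its own Affymetrix rhesus macaque array, so that RNA of a related species bound to the probes. According to the series design the CL of both treatments came from the same animals, yet no label links a CET sample to a VEH sample. The glucose solution is the vehicle of CET in the study. In whole CL, fewer cells of a type and less RNA per cell cannot be told apart.

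The arrays were not alike, and the array's controls for GAPDH, which read both ends of the transcript, show it on an enzyme of the list. The 3' signal was 142.8 times the 5' signal on CET replicate 2, against 5.89 and 3.03 times on CET replicates 1 and 3 and 1.79 to 7.31 times on the VEH arrays. Over all probe sets each CET array had a higher mean rank correlation with the VEH arrays than with the other CET arrays, and the gap was widest for CET replicate 1, at 0.756 against 0.664. For CET replicates 2 and 3 it was 0.727 against 0.71 and 0.733 against 0.709. Values without CET replicate 2 are given beside many of the results, and values without CET replicate 1 or another array beside some of them. All values below are log2 signals after quantile normalization. Differences are log2 fold changes, CET minus VEH, with the standard error (SE) from limma fitted over 52707 probe sets and Benjamini-Hochberg adjustment over all of them.

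Most of the enzymes had a lower mean after CET. Of the 33, 27 had a lower and 6 a higher mean, where 54.7% of all 14132 genes had a lower mean. The median log2 fold change of the enzymes was -0.68 and that of all genes was -0.08, or -0.13 for the 10929 genes whose probe set had a mean log2 signal of at least 7.43, under which a probe set is called dim here. For the 5888 genes within the middle range of the enzymes' brightness the median was -0.18, and 60.1% of them had a lower mean. A mean lower by at least 1.5-fold was found for 18 enzymes (24% of all genes) and a mean higher by 1.5-fold for 4 (18.6% of all genes). The adjusted p from limma ran from 0.827 to 0.997 over the enzymes, so none of them was called, and no gene was (0% of all genes). With 3 samples in each group, a lack of calls does not show that an enzyme was unchanged. An unadjusted p under 0.05 was reached by 6 enzymes (5.03% of all genes), with 5 on the lower side, PKM, PDHX, ACO1, IDH1 and SUCLA2 (3.01% of all genes), and 1 on the higher side, PGAM2 (2.02% of all genes). These p-values hung on single arrays. The count on the lower side was 0 without CET replicate 2 or VEH replicate 5, and 2 without VEH replicate 4. It was 3 without CET replicate 3 or VEH replicate 6, and 10 without CET replicate 1. PGAM2 missed the threshold without CET replicate 2, CET replicate 3 or VEH replicate 4. The count over all 14132 genes, both sides together, moved too. It was 711 with all arrays, 2307 without CET replicate 1, and from 380 (VEH replicate 5) to 594 (VEH replicate 4) with another array omitted. The median of the enzymes was -0.44 without CET replicate 3, where 24 enzymes had a lower mean, and -0.53 without CET replicate 2, where 26 had. Without CET replicate 1 it was -0.81, and 26 had a lower mean. By pathway, 11 of 14 glycolytic enzymes had a lower mean (median -0.50), 5 of 7 proteins of the pyruvate dehydrogenase complex and its kinases (median -0.55), and 11 of 12 enzymes from pyruvate carboxylase through the citric acid cycle (median -0.91).

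**Figure D1:**
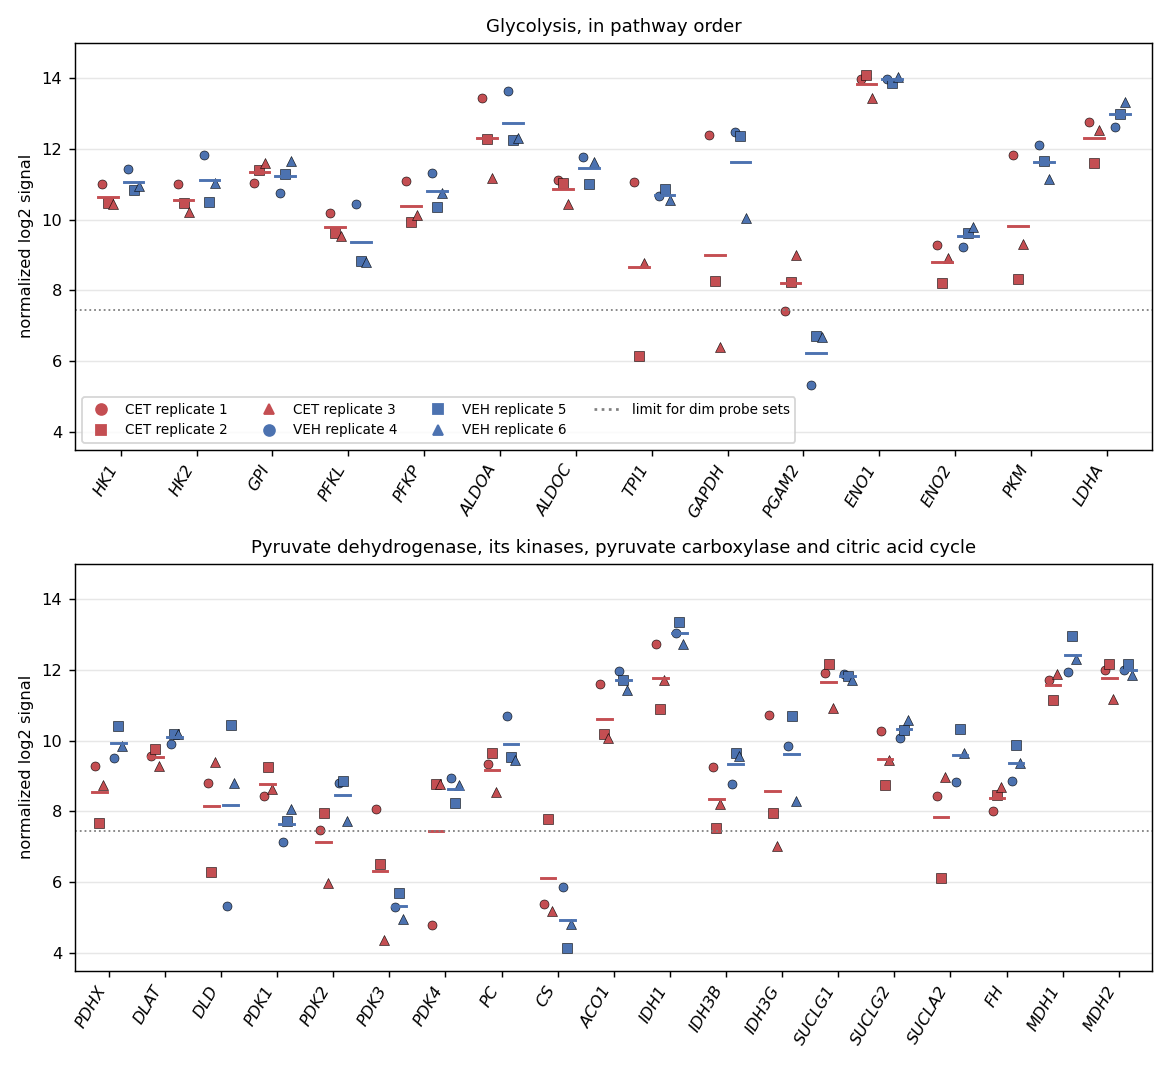
Normalized log2 signal of the 33 enzymes on each array, with the genes in pathway order from left to right. Each symbol is an array, short bars give group means and the dotted line marks 7.43, under which probe sets are dim. The CET points of PGAM2 and PDK1 lie above all VEH points, those of PDHX, DLAT, IDH1, FH and MDH1 lie below them, and the other enzymes overlap.

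The 3 CET samples did not contribute equally. On CET replicate 3, 25 of the 33 enzymes lay below all 3 VEH arrays, or 75.8%, where 38.3% of all genes did. On CET replicate 2 this held for 18 enzymes, or 54.5%, against 31.9% of all genes. On CET replicate 1 it held for 9 enzymes, or 27.3%, against 25.3% of all genes, a share near that of all genes.

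The arrays also differed by pathway. The median of the 14 glycolytic enzymes, taken as the difference from the mean of all 6 arrays, was 0.17 on CET replicate 1, -0.38 on CET replicate 2 and -0.46 on CET replicate 3. On VEH replicates 4, 5 and 6 it was 0.66, -0.02 and 0.18, so VEH replicate 5 lay below CET replicate 1. For the 12 enzymes from pyruvate carboxylase through the citric acid cycle it was 0.13, -0.92 and -0.66 on the CET arrays. On the VEH arrays it was 0.16, 0.68 and 0.30, and every VEH array lay above every CET array, although CET replicate 1 and VEH replicate 4 nearly met.

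**Figure D2:**
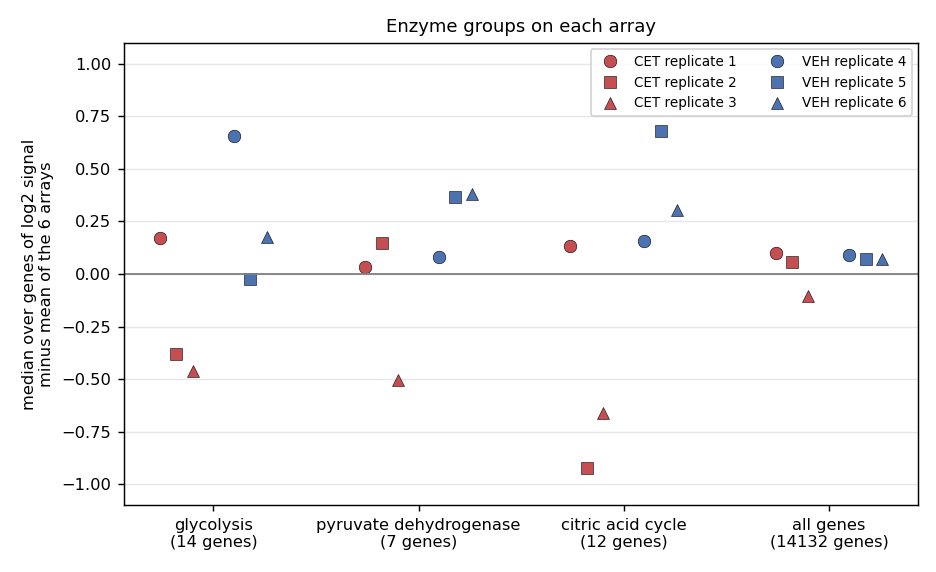
Median over the genes of each enzyme group of the log2 signal minus the mean of the 6 arrays (vertical axis), with all genes at the right, 1 point per array. CET replicates 2 and 3 lie at -0.92 and -0.66 for the citric acid cycle. For all genes the arrays lie between -0.10 and 0.10, but this is a median over 14132 genes after quantile normalization. Other lists, not drawn, differed in spread. The arrays ran from -0.72 to 0.74 for 10 glycolysis and citric acid cycle enzymes outside this list, and from -0.33 to 0.30 for 57 genes of related pathways.

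Glycolysis starts with hexokinase, which traps glucose as its phosphate. HK1 had a log2 fold change of -0.43 (SE 0.41) and HK2 of -0.56 (SE 0.46), and the groups overlapped for both. GPI, which turns glucose phosphate into fructose phosphate, had 0.12 (SE 0.41), with a 95% interval of -0.79 to 1.02, and the sign was not kept on the signals as deposited (-0.12), with array medians subtracted (-0.32) or with the mean over its probe sets (-0.79). Of the phosphofructokinases, which commit sugar to glycolysis, the liver type PFKL had 0.43 (SE 0.55) and the platelet type PFKP had -0.42 (SE 0.47). Both differences were smaller than their SE.

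Aldolase splits the 6-carbon sugar into triose phosphates. ALDOA, the main aldolase outside liver and among the 3 brightest probe sets of the list, read 13.43, 12.28 and 11.17 on CET replicates 1, 2 and 3 and 13.64, 12.24 and 12.31 on VEH replicates 4, 5 and 6. The arrays overlapped, and the log2 fold change was -0.44 (SE 0.59), or 0.13 without CET replicate 3 and 0.014 without VEH replicate 4. ALDOC, known from brain, had -0.60 (SE 0.42).

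TPI1, which interconverts the triose phosphates, read 11.06, 6.15 and 8.78 on the CET arrays and 10.66, 10.86 and 10.56 on the VEH arrays. CET replicate 1 was the highest of all 6 arrays and CET replicate 2 the lowest, while the VEH arrays lay close together. This gave a log2 fold change of -2.03 (SE 0.94; 95% interval -4.09 to 0.030), -0.77 without CET replicate 2 and -3.26 without CET replicate 1. The other probe set of TPI1 gave -0.39.

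GAPDH, which couples triose oxidation to NADH, read 12.38, 8.25 and 6.40 on the CET arrays and 12.47, 12.37 and 10.04 on the VEH arrays at its gene probe set. CET replicate 1 read like the VEH arrays and the other CET arrays were far lower. The log2 fold change was the most negative of the list, -2.62 (SE 1.21; 95% interval -5.26 to 0.034, adjusted p = 0.827 from limma). Leaving out CET replicate 1, 2 or 3 gave -4.31, -2.24 and -1.34, in that order.

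The array also reads GAPDH at 5 control probe sets named for the 3' end, the middle and the 5' end, which were not part of the gene list. At the 3' control the CET arrays read 15.11, 15.01 and 14.67 and the VEH arrays 15.30, 15.21 and 14.78, a log2 fold change of -0.17 (SE 0.42). At the 5' control the CET arrays read 12.94, 7.57 and 12.83 and the VEH arrays 12.81, 13.91 and 13.20, a log2 fold change of -2.19 (SE 1.12). The 5' reading was low on CET replicate 2 and not on CET replicate 3. At the middle, 1 control gave -2.35 (SE 1.19), with CET replicate 2 alone far below the others, and the other gave -2.20 (SE 0.68), with CET replicates 2 and 3 both below the remaining arrays. The difference between the groups thus ran from -0.16 to -2.62 over the 6 probe sets of GAPDH, and they do not give a single value for the gene.

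**Figure D3:**
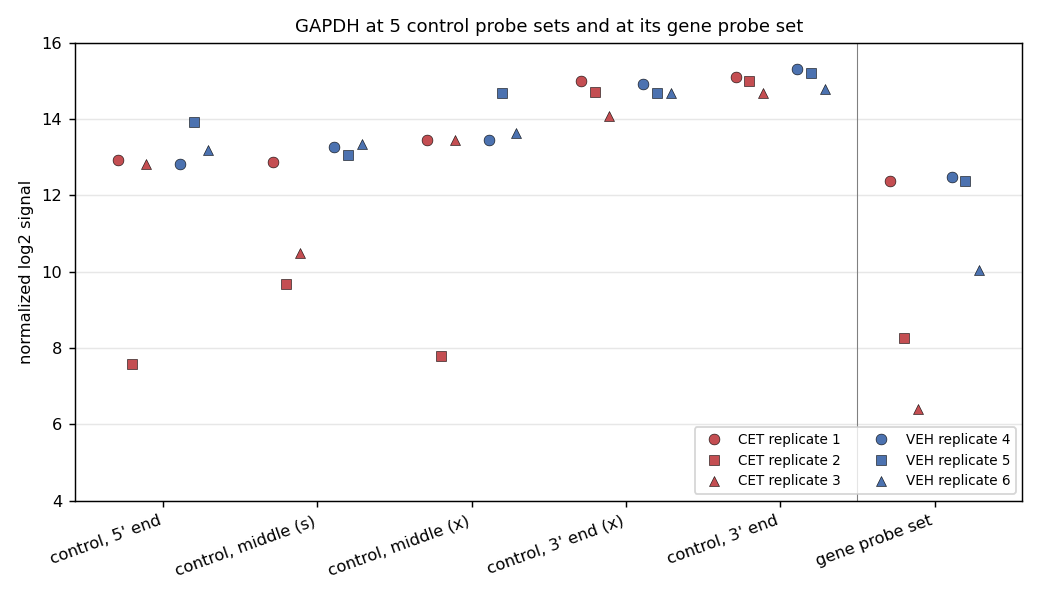
Normalized log2 signal of GAPDH (vertical axis) at 5 control probe sets ordered from the 5' to the 3' end and at the gene probe set, whose place in the transcript is not given, 1 point per array. At the 3' controls the arrays lie between 14.09 and 15.30, and at the 5' control CET replicate 2 lies at 7.57, with the other arrays at 12.81 or above.

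PGAM2, the muscle type of phosphoglycerate mutase, was the 1 glycolytic enzyme whose groups did not overlap on the higher side. It read 7.41, 8.24 and 9.005 on the CET arrays and 5.33, 6.71 and 6.67 on the VEH arrays. Of the 33 enzymes, 2, PGAM2 and PDK1, had all CET arrays above the VEH arrays, a share near the 5.07% of all genes. The group means of PGAM2 differed by a log2 fold change of 1.98 (SE 0.77, adjusted p = 0.827 from limma), and 1.54 to 2.41 over the fits that each omit an array. All VEH arrays and CET replicate 1 read under 7.43, and the probe set was dim by its mean. The size therefore depends on how low signals are treated: it was 1.70 with signals raised to the 20th percentile and 1.76 with 16 added to each signal. Of 6 skeletal muscle markers, 4 were measured and 3 had a higher mean after CET. CKM, the muscle creatine kinase, had 1.31 (SE 0.49) with groups apart. TNNI2 had 0.72 (SE 0.78), also apart, but from a dim probe set with a mean log2 signal of 5.32. TNNT3 had 0.32 (SE 0.68) and MB had -0.95 (SE 0.78). The summed signal of the 4 markers ran from 1112 to 1809 on the CET arrays and from 962 to 1304 on the VEH arrays, and their part in the PGAM2 value was not tested.

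ENO1, the general enolase and the brightest probe set of the list, read 13.97, 14.09 and 13.42 on the CET arrays and 13.99, 13.86 and 14.04 on the VEH arrays. The arrays overlapped, with a log2 fold change of -0.14 (SE 0.39; 95% interval -0.99 to 0.72). ENO2, the neuronal type, had -0.75 (SE 0.50), or -0.45 without CET replicate 2, and of the neuronal markers SYT1 had 0.33 (SE 0.66) and STMN2 had -0.87 (SE 0.77).

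PKM, which forms pyruvate, read 11.82, 8.32 and 9.30 on the CET arrays and 12.10, 11.64 and 11.15 on the VEH arrays. CET replicates 2 and 3 lay below all VEH arrays and CET replicate 1 among them. The log2 fold change was -1.82 (SE 0.74, adjusted p = 0.827 from limma), or 3.52-fold lower, -1.09 without CET replicate 2 and -2.82 without CET replicate 1. Of its other probe sets, 1 gave -1.21 and 1, below the dim limit, gave 1.41, so that the mean over the 3 probe sets was -0.54. LDHA, the subunit of lactate dehydrogenase that favours lactate formation, read 12.75, 11.60 and 12.54 on the CET arrays and 12.61, 12.998 and 13.32 on the VEH arrays. CET replicate 1 lay within the VEH range, and the log2 fold change was -0.68 (SE 0.43), or -0.34 without CET replicate 2.

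**Figure D4:**
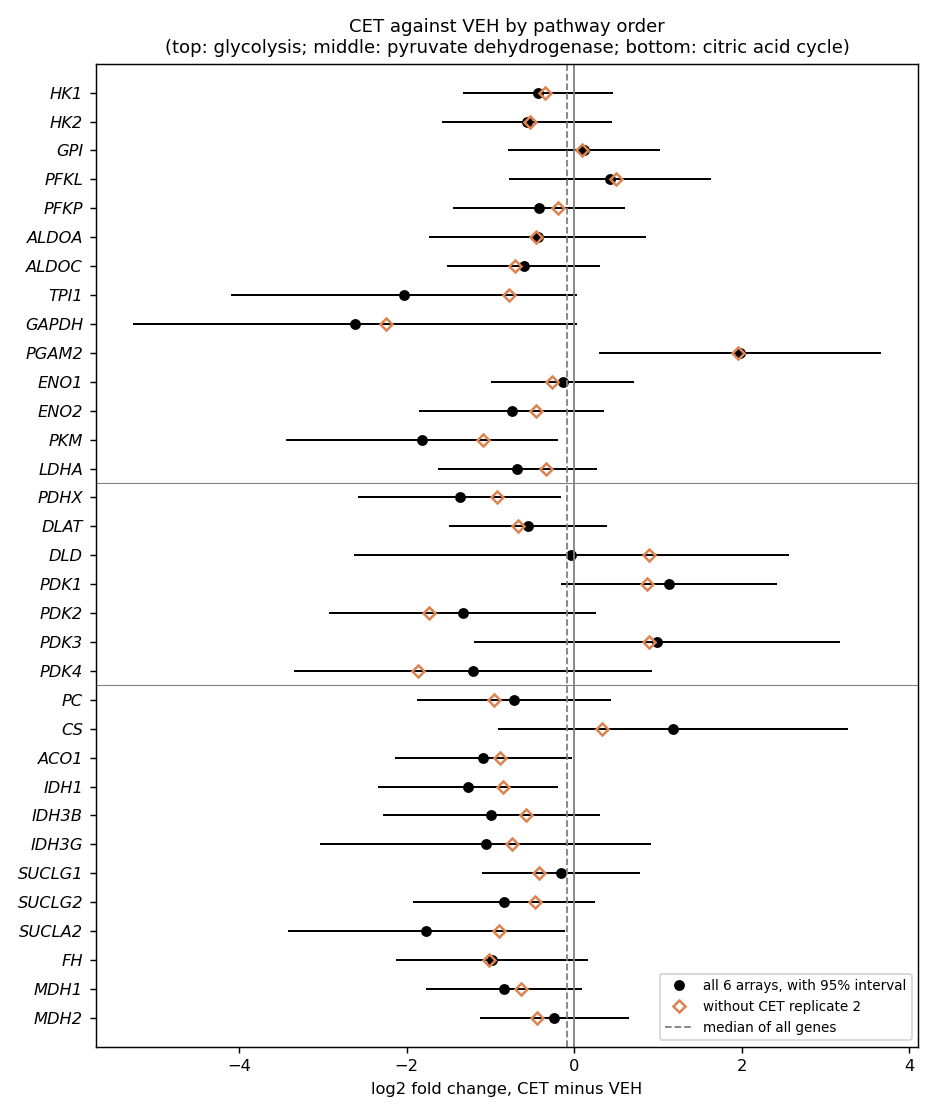
Log2 fold change, CET minus VEH (horizontal axis), of the 33 enzymes in pathway order, with 95% intervals from limma over 6 arrays. Open diamonds are the values without CET replicate 2: those of TPI1, PKM, SUCLA2 and IDH1 lie nearer 0, and that of DLD turns to 0.90.

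Pyruvate enters mitochondrial oxidation through the pyruvate dehydrogenase complex. PDHX, the protein that binds the E3 subunit into the complex, read 9.28, 7.66 and 8.74 on the CET arrays and 9.52, 10.42 and 9.84 on the VEH arrays. PDHX was 1 of 5 enzymes whose CET arrays all lay below the VEH arrays (6.45% of all genes), with a log2 fold change of -1.37 (SE 0.55, adjusted p = 0.827 from limma), or 2.58-fold lower. Leaving out CET replicate 2 gave -0.92, and leaving out another array gave down to -1.77. DLAT, the acetyltransferase E2, read 9.56, 9.76 and 9.28 on the CET arrays and 9.89, 10.18 and 10.19 on the VEH arrays. These groups did not overlap either, the difference was small at -0.55 (SE 0.43), and the other probe set of DLAT also kept the groups apart at -0.80. DLD, the E3 subunit that the complex shares with oxoglutarate dehydrogenase, had -0.031 (SE 1.19), with a 95% interval of -2.63 to 2.57 that leaves its direction unknown.

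The kinases of the complex did not share a direction. PDK1, a kinase induced by hypoxia, read 8.43, 9.26 and 8.63 on the CET arrays and 7.15, 7.72 and 8.06 on the VEH arrays. Every CET array lay above every VEH array, with a log2 fold change of 1.13 (SE 0.59, adjusted p = 0.827 from limma), or 2.19-fold, and 0.87 to 1.34 over the fits that each omit an array. PDK2, the most widely expressed kinase, had -1.33 (SE 0.73), or -1.73 without CET replicate 2. PDK3 had 0.99 (SE 0.998) from a dim probe set, and omitting CET replicate 1, its highest array, gave 0.097, while omitting CET replicate 3 gave 1.99.

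PDK4, the kinase raised by fasting and fatty acids, read 4.78, 8.77 and 8.77 on the CET arrays and 8.95, 8.23 and 8.75 on the VEH arrays. CET replicate 1 alone was low and the other CET arrays read within the VEH range. The log2 fold change of -1.21 (SE 0.98) rested on that array, being 0.13 without it.

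PC, pyruvate carboxylase, which refills the cycle with oxaloacetate, had -0.72 (SE 0.53). CS, citrate synthase, was the dimmest enzyme of the list, with a mean of 6.12 after CET and 4.94 after vehicle. Both lay below the dim limit, and its log2 fold change of 1.18 (SE 0.96) was 0.34 without CET replicate 2. Of these 12 enzymes it was the 1 with a higher mean.

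ACO1, the cytosolic aconitase that doubles as an iron regulatory protein, read 11.60, 10.17 and 10.08 on the CET arrays and 11.97, 11.70 and 11.44 on the VEH arrays. CET replicate 1 lay within the VEH range and the other CET arrays lay below it. That is a log2 fold change of -1.08 (SE 0.48, adjusted p = 0.827 from limma), or 2.12-fold lower, and -0.89 without CET replicate 2. Over the fits that each omit an array, ACO1 ran from -1.54 to -0.85.

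IDH1, the cytosolic isocitrate dehydrogenase that makes NADPH, read 12.72, 10.90 and 11.71 on the CET arrays and 13.03, 13.35 and 12.73 on the VEH arrays. The groups were apart, but CET replicate 1 and VEH replicate 6 nearly met. The log2 fold change was -1.26 (SE 0.49, adjusted p = 0.827 from limma), or 2.40-fold lower, the smallest unadjusted p of the list at 0.024 in limma. It was -0.85 without CET replicate 2 and ran down to -1.68 with another array omitted. The other, dimmer probe set gave -1.97. The NAD-linked mitochondrial subunits IDH3B and IDH3G had -0.99 (SE 0.59) and -1.05 (SE 0.90), with overlapping groups. IDH3B was -0.58 without CET replicate 2 and ran down to -1.49 with another array omitted. IDH3G gave -2.17 once CET replicate 1 was omitted and -0.28 once CET replicate 3 was, and its 2 other probe sets gave -1.89 and 0.20.

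Succinyl-CoA ligase conserves energy as ATP or GTP, depending on its beta subunit. SUCLA2, the ATP-forming subunit, read 8.42, 6.13 and 8.98 on the CET arrays and 8.84, 10.32 and 9.66 on the VEH arrays. CET replicate 2 was far the lowest, CET replicate 3 lay within the VEH range, and the log2 fold change of -1.76 (SE 0.76, adjusted p = 0.827 from limma) was -0.90 without CET replicate 2. With another array omitted, the value of SUCLA2 ran down to -2.365. SUCLG2, the GTP-forming subunit, had -0.84 (SE 0.50), or -0.47 without CET replicate 2, and ran down to -1.24 with another array omitted. SUCLG1, the alpha subunit shared by both, had -0.15 (SE 0.43) at its brightest probe set and -2.61 (SE 0.73) at the other, where the groups were apart.

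FH, fumarase, read 8.01, 8.46 and 8.68 on the CET arrays and 8.87, 9.87 and 9.36 on the VEH arrays. The groups did not overlap and the log2 fold change was -0.98 (SE 0.52). It was -1.01 without CET replicate 2, and ran from -1.25 to -0.71 over the fits that each omit an array. MDH1, the cytosolic malate dehydrogenase of the malate-aspartate shuttle, read 11.70, 11.13 and 11.89 on the CET arrays and 11.95, 12.96 and 12.32 on the VEH arrays. These groups were also apart, although CET replicate 3 and VEH replicate 4 nearly met. The log2 fold change was -0.83 (SE 0.42), or -0.63 without CET replicate 2. MDH2, the mitochondrial form, had -0.23 (SE 0.41; 95% interval -1.13 to 0.66) with overlapping groups.

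For 13 enzymes the array held more than 1 probe set, and the reading differed between them. Of 19 other probe sets above the dim limit, 14 gave a lower log2 fold change than the brightest probe set of the same gene, or 73.7%, against 56.8% of 5877 such probe sets over all genes. The median over these 19 was -1.05, and that of the brightest probe sets of the same 13 genes was -0.55. ENO1 shows the range, with -0.14 at its brightest probe set and -1.28, -1.50 and 0.07 at the others. GPI had 0.12 at its brightest and -1.02 and -1.45 at the others.

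**Figure D5:**
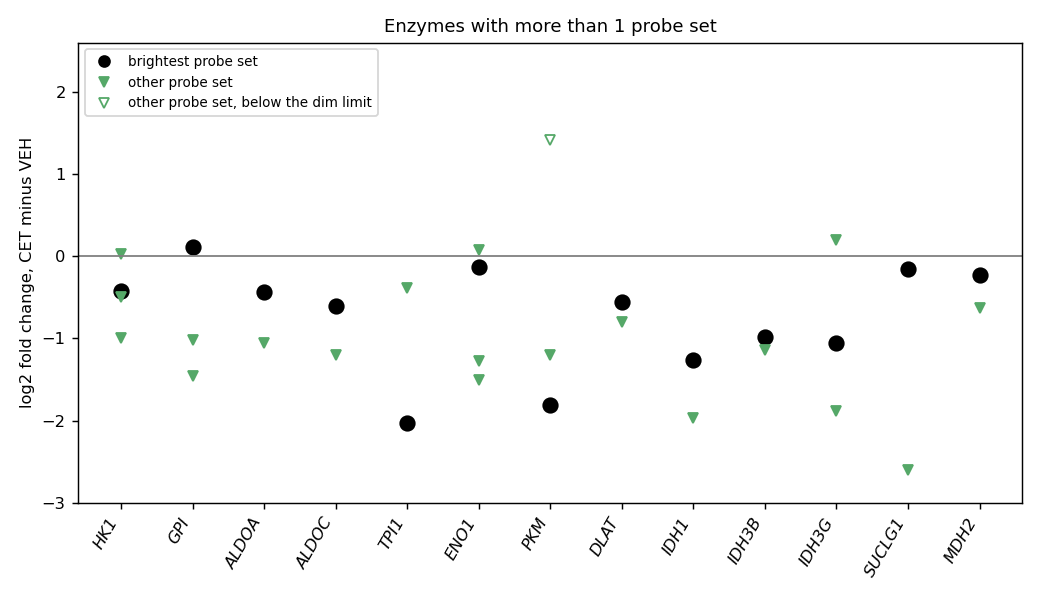
Log2 fold change, CET minus VEH (vertical axis), at every probe set of the 13 enzymes with more than 1. Black points are the brightest probe sets and triangles the others. For SUCLG1 the values are -0.15 and -2.61, and for DLAT they lie close together at -0.55 and -0.80.

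Genes of further lists, on glucose use, pathways linked to it and hypoxia factors, lay as a whole nearer to the median of all genes. Of 88 in 8 lists, 57 had a probe set of their own, 39 had a lower mean after CET (68.4%, against 54.7% of all genes) and the median log2 fold change was -0.19. No adjusted p in limma was under 0.05. At an unadjusted p under 0.05 there were 2 of the 57, both lower, where 5.03% of all genes reached it and 3.01% on the lower side. SLC16A3, which exports lactate, had -2.16 (SE 0.97), or -1.05 without CET replicate 3, and its other probe sets gave -0.39 and -0.26. PYGL, which releases glucose from glycogen, had -1.63 (SE 0.63) with groups apart, or -0.85 without CET replicate 2, and all 5 of its other probe sets had a lower mean. The transporters SLC2A1 and SLC2A3, which bring glucose into cells, had -0.50 (SE 0.69) and 0.19 (SE 0.43), each with other probe sets of the opposite sign, and the carrier list as a whole had a median of -0.10 over 13 genes. SLC2A1 and SLC2A3 were chosen after their values were seen.

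Of the further glycolysis and citric acid cycle enzymes 10 were measured, 7 with a lower mean, and their median was -0.12. The subunits of succinate dehydrogenase, which links the cycle to the respiratory chain, were not alike: SDHA, the catalytic subunit, had -0.04 (SE 0.50), SDHB had -0.96 (SE 0.52) and SDHC had -0.83 (SE 0.59). Without CET replicate 2, SDHB and SDHC had -0.61 and -0.32, and without CET replicate 1 they had -1.41 and -1.52. A dim second probe set of SDHC gave 0.34. OGDHL, a relative of oxoglutarate dehydrogenase, had 0.76 (SE 0.71) with the CET arrays above the VEH arrays. However, CET replicate 2 and VEH replicate 5 nearly met, at 7.675 and 7.669.

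Of 7 malic enzyme, transhydrogenase, citrate lyase and aminotransferase genes, 4 had a lower mean, with a median of -0.19. NNT, which makes NADPH in mitochondria, had -1.09 (SE 0.50), or -0.68 without CET replicate 2. ME1 and ACLY, which serve cytosolic NADPH and acetyl-CoA, had -0.79 (SE 0.45) and -0.86 (SE 0.53), or -0.64 and -0.34 without CET replicate 2. RPIA of the pentose phosphate pathway had -0.95 (SE 0.47), or -0.88 without CET replicate 2, and all 4 measured genes of that list had a lower mean, with a median of -0.57. LIAS, which makes the lipoyl group of the dehydrogenase complexes, had -1.26 (SE 0.64) with groups apart, but 0.28 at its other probe set. The other genes of that list, PDP1, LIPT1 and PDPR, had -0.46, -0.42 and -0.07. Of 7 measured hypoxia factors and regulators, 5 had a lower mean, with a median of -0.38. EPAS1 had -0.89 (SE 0.49) and EGLN1 -0.76 (SE 0.44), or -0.45 and -0.52 without CET replicate 2. ARNT and HIF1AN had -0.58 and -0.38, and ADM and CA9 had -0.01 and 0.02. EGLN2 had 0.29 with the CET arrays above the VEH arrays, although CET replicate 3 and VEH replicate 4 nearly met, at 11.409 and 11.402. Its next brightest probe set gave -0.47.

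Markers of the luteal cells had lower means in the same comparison. Of 7 steroidogenic markers 5 were measured, all with a lower mean after CET and a median of -0.99. STAR, which carries cholesterol into mitochondria, had the groups apart at -1.49 (SE 0.53), or -0.96 without CET replicate 2. STAR, HSD3B2 and INHA kept a lower mean with any array omitted. NR5A1, at -0.11, had 1.06 without CET replicate 1, and CYP19A1, at -1.18, had 0.03 without VEH replicate 5. The summed signal of the 5 markers ran from 33422 to 76658 on the CET arrays and from 67179 to 103961 on the VEH arrays. CYP11A1 and LHCGR had no probe set of that name in the table used here. Of 7 endothelial markers 5 had a lower mean, with a median of -0.33 and a summed signal of 15268 to 25444 on the CET arrays and 16008 to 19104 on the VEH arrays. Of the red cell markers, HBB had -0.01 (SE 0.54) and ALAS2 had 1.05 (SE 0.48), but -0.12 at its other probe set. Of the other marker lists, 4 of 5 ovarian surface epithelium genes had a lower mean (median -1.02), as did 3 of 5 fibroblast genes (median -0.24), 1 of 2 for pericytes and smooth muscle, 1 of 4 for macrophages (median 0.11) and 1 of 4 for lymphocytes (median 0.22). The part of these cell types in the enzyme values was not tested.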

How the data were processed

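Per the labels, the authors made probe set signals with Affymetrix Microarray Suite (MAS5), and these linear intensity values were deposited. Each array had been scaled to a trimmed mean of 500.0 (outer 2% of signals left out). The scanner, detection calls and scaling settings are not stated in the labels. From there, signals under 1 were raised to 1, log2 was taken, and quantile normalization was run over all 52865 probe sets. After removal of 158 controls, limma (version 3.58.1, R 4.3.3; empirical Bayes with a trend on intensity, no covariates) gave CET minus VEH. Each gene was represented by its brightest probe set that carried a single symbol. Dim means under the 40th percentile of mean signal. An exact permutation test of 3 against 3 samples cannot go below p = 0.1. The labels name no separate animal for each sample, so p-values measure the spread between these samples, which may be technical, and their small number limits the precision.

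The enzymes and lists were chosen with earlier results of these data known. Values on every array are given for enzymes with an unadjusted p under 0.05, with groups apart, or among the 3 brightest, and for GAPDH and PDK4. TPI1, SDHA, SLC2A1, SLC2A3, PDPR, EGLN2, HIF1AN, ADM and CA9 were added after their values were seen. From each further pathway list up to 3 genes of smallest unadjusted p could be named, and not all were. The alternatives were other normalizations, floors, filters, limma settings, the methods' t-test, the mean over probe sets, the control ratio as a covariate and each array omitted. The code was tested on simulated arrays with the spreads of these data, in which 200 of 52707 probe sets were changed. At an adjusted p under 0.05 in limma, 0% of changes of log2 size 1, 2 or 3 were recovered, and 20.6% of those of size 4. A lack of calls therefore says little about changes of such sizes. Promoter motifs were not analysed here.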

Additional observations from a re-analysis of the deposited data

Results flagged for a closer look

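The GAPDH control probe sets lie outside the gene list. Their 3' signal was 142.8 times the 5' signal on CET replicate 2, above every VEH array, where the highest ratio was 7.31. The deposited 5' signal was 184 on CET replicate 2 and 5169 to 16330 on the other arrays. The middle signal was 218 on CET replicate 2 and 7628 to 23166 on the others. The 3' signal of CET replicate 2, 26290, was above that of CET replicate 3, 15685. The part of this array in the enzyme values was not tested beyond the values without it and a fit with the control ratio (3' over 5') as a covariate. With that covariate the median of the 33 enzymes was -0.58 in place of -0.68.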

How the results depend on the processing

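No paired analysis was possible because the labels number the samples 1 to 3 and 4 to 6 and do not say which come from the same monkey. Over 17 alternatives, 26 of the 33 enzymes kept the sign of their log2 fold change in every one that gave a value, and no enzyme passed an adjusted p of 0.05 in any of them. PGAM2, PDK3 and CS, being dim, drop out where dim probe sets are removed.

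The count of enzymes at an unadjusted p under 0.05 on the lower side, 5, was 8 on the signals as deposited, 9 with array medians subtracted, 9 with array weights, 3 with a floor at the 20th percentile, 2 with the methods' t-test, 2 with the control ratio (3' over 5') as a covariate and 0 without the intensity trend. It ran from 0, without CET replicate 2 or VEH replicate 5, to 10 without CET replicate 1. On the higher side the count of 1 was 2 on the signals as deposited, with the methods' t-test and with the mean over probe sets, 0 with dim probe sets removed, and 0 to 1 over the fits that omit an array. Over all 14132 genes, the count at that threshold on both sides was 711, and it moved with the setting too. It was 855 on the signals as deposited, 1088 with array medians subtracted, 1561 with array weights and 830 with the floor. With the methods' t-test it was 746, with the covariate 667 and without the intensity trend 553. It was 380 without VEH replicate 5 and 2307 without CET replicate 1. The count of enzymes lower by 1.5-fold, 18, ran from 15 without CET replicate 2 to 26 with array medians subtracted. The median of all 33 enzymes, -0.68, was -0.48 with cyclic loess and -0.91 with array medians subtracted. With dim probe sets removed 1 enzyme was 1.5-fold higher in place of 4, and the median of the pyruvate dehydrogenase group was -0.88 in place of -0.55. Over the fits that omit an array, that median ran from -1.06 (without VEH replicate 4) to -0.35 (without CET replicate 1). The glycolysis median of -0.50 was -0.87 with array medians subtracted, a setting that moved the median of all genes from -0.08 to -0.20. The same median was -0.77 once CET replicate 1 was omitted and -0.23 once VEH replicate 4 was.

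The signs that turned were those of GPI (-0.12 as deposited, -0.32 with array medians subtracted, -0.79 with the mean over probe sets, and -0.11 to 0.33 with an array omitted), ENO1 (0.16 with cyclic loess, -0.27 to 0.066 with an array omitted) and DLD (1.53 with the control ratio as a covariate, -1.47 to 1.07 with an array omitted). With an array omitted, ALDOA ran from -0.97 to 0.13, PDK4 from -1.90 to 0.13, SUCLG1 from -0.42 to 0.24 and MDH2 from -0.45 to 0.070. Read at the 3' control probe set, chosen after seeing the data, GAPDH had -0.17. The cause of these changes was not tested.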
